A study of Homo sapiens with 4 samples.

Results

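The genes described here are 42 listed components of homologous recombination, the Fanconi anemia pathway and mismatch repair, with the checkpoint kinases that work beside them, out of 63856 genes in the count table. They were chosen by symbol from that list, and all 42 were found. RNA was sequenced from MCF10A, a human breast epithelial cell line that does not form tumors, in 2 groups of 2 libraries each. WT cells were unmodified. HSF1-pLVX cells carried the human HSF1 coding sequence, delivered by a lentivirus made with the pLVX-Puro plasmid, and were selected with puromycin. The gene was driven by the vector's promoter, and the sources used here name no single clone. Both groups were grown in medium with horse serum, insulin, hydrocortisone, EGF and cholera toxin. The methods of the published study do not list cholera toxin. The study also made cells with the empty vector, but no library of this series comes from them. The vector, the selection and the extra HSF1 therefore cannot be told apart in this comparison. Library totals ran from 18688109 to 24184285 counts. HSF1 itself was at 200.4 and 189.2 CPM (counts scaled to a common library size of 1e+06) in WT replicates 1 and 2 and at 982.4 and 998.6 CPM in HSF1-pLVX replicates 1 and 2, as the labels state.

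Homologous recombination mends a broken DNA molecule by copying the matching sequence of the sister chromatid. BRCA1 directs resection of the broken ends, and BRCA2, brought in by PALB2, prepares them for the search for the copy. The Fanconi pathway frees replication forks from crosslinks between the strands: a core complex attaches ubiquitin to FANCD2 and FANCI, and recombination completes the repair. Mismatch repair removes wrongly paired bases left by replication. All 3 work mainly on replicating DNA, and many of their genes are known to be transcribed most around S phase, when E2F factors act on their promoters.

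The promoters of 3 of these genes, FANCA, FANCC and PMS2, are shown because they hold the letters of an E2F site upstream of the start and differ in their fold change. Each run is the 200 bases before the RefSeq start (GRCh38.p14), read 5′ to 3′ along the gene, which lies on the minus strand in each case. Capitals mark any of 4 strings, TTTCCCGC, TTTGGCGC, TTTCGCGC and TTTGCCGC, on either strand.

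FANCA, chr16:89816648-89816847, log2 fold change 2.44: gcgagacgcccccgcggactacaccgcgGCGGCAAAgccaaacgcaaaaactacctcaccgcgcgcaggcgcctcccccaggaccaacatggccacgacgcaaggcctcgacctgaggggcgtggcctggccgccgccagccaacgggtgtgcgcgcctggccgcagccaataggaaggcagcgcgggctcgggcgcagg
FANCC, chr9:95317710-95317909, log2 fold change 0.62: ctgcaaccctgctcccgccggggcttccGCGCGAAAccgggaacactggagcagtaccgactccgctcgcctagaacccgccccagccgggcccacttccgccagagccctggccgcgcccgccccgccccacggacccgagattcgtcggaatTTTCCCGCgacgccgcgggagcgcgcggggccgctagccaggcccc
PMS2, chr7:6009107-6009306, log2 fold change 0.32: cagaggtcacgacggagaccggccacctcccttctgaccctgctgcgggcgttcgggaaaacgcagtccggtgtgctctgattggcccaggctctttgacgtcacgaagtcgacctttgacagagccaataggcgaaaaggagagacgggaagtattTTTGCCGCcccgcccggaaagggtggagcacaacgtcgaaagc

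The FANCC window is that of 1 RefSeq start and lies inside the longer gene model of the count table, which runs from 95099054 to 95426796 on chromosome 9. RefSeq promoters of 300 bases, 250 before and 50 after the start, were matched for 38 of the 42 genes, with no entry for NBN, RAD54B, FANCI and RMI2. E2F letters were in 8 of the 38 (21.1%), against 3.3% of all 35116 promoters of the same length and 4.1% of those of protein-coding genes. The 8 genes were XRCC2, FANCA, FANCC, FANCD2, EXO1, MSH6, PMS2 and TOPBP1. For other strings the shares lay closer: the CHR letters TTTGAA were in 15.8% of the 38 promoters and 15.2% of all, and CCAAT was in 47.4% and 34.6%. Both strands were searched, and overlaps between strings of different kinds were not removed. A heat shock element, the site that HSF1 binds, was searched only in a strict form that allows no mismatch. It was in 0 of the 38 and in 0.5% of all promoters. With so small a share over all promoters, 0 among 38 cannot set these genes apart. Looser forms and sites outside the window were not searched. The 8 genes with E2F letters had a median log2 fold change of 1.27, between 0.32 and 2.44. The 29 tested genes with a promoter but without these letters had a median of 1.31, between 0.12 and 2.98. These shares describe letters in a window, not bound sites.

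Messenger RNA of most of these repair genes was more abundant in HSF1-pLVX than in WT cells. Of the 42 genes, 41 had enough counts for the test. Of these, 37 (90.2%) were called higher and 1 (NBN) lower at an adjusted p of 0.05 (edgeR quasi-likelihood test, Benjamini-Hochberg adjustment over 15830 genes), against 32.5% and 32.7% of all tested genes in those directions. In total 25 of the 41 (61.0%) were at least 2-fold higher and 0 were 2-fold lower, against 14.9% and 14.0% of all genes. The median log2 fold change was 1.31, with quartiles of 0.79 and 1.83, and that of all tested genes was 0.02. Both HSF1-pLVX libraries stood above both WT libraries in 40 of the 41 genes, and below in 1, where 42.1% and 41.0% of all genes did. Changes of at least 3-fold were seen in 14 genes and of at least 4-fold in 9. The 3 genes that were not called were RAD54B, FANCF and ATR. The study calls its replicates biological, without naming the cultures, so that p-values measure only the spread between these libraries, and an exact permutation test of 2 against 2 libraries cannot go below 0.333 for a single gene.

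**Figure D1:**
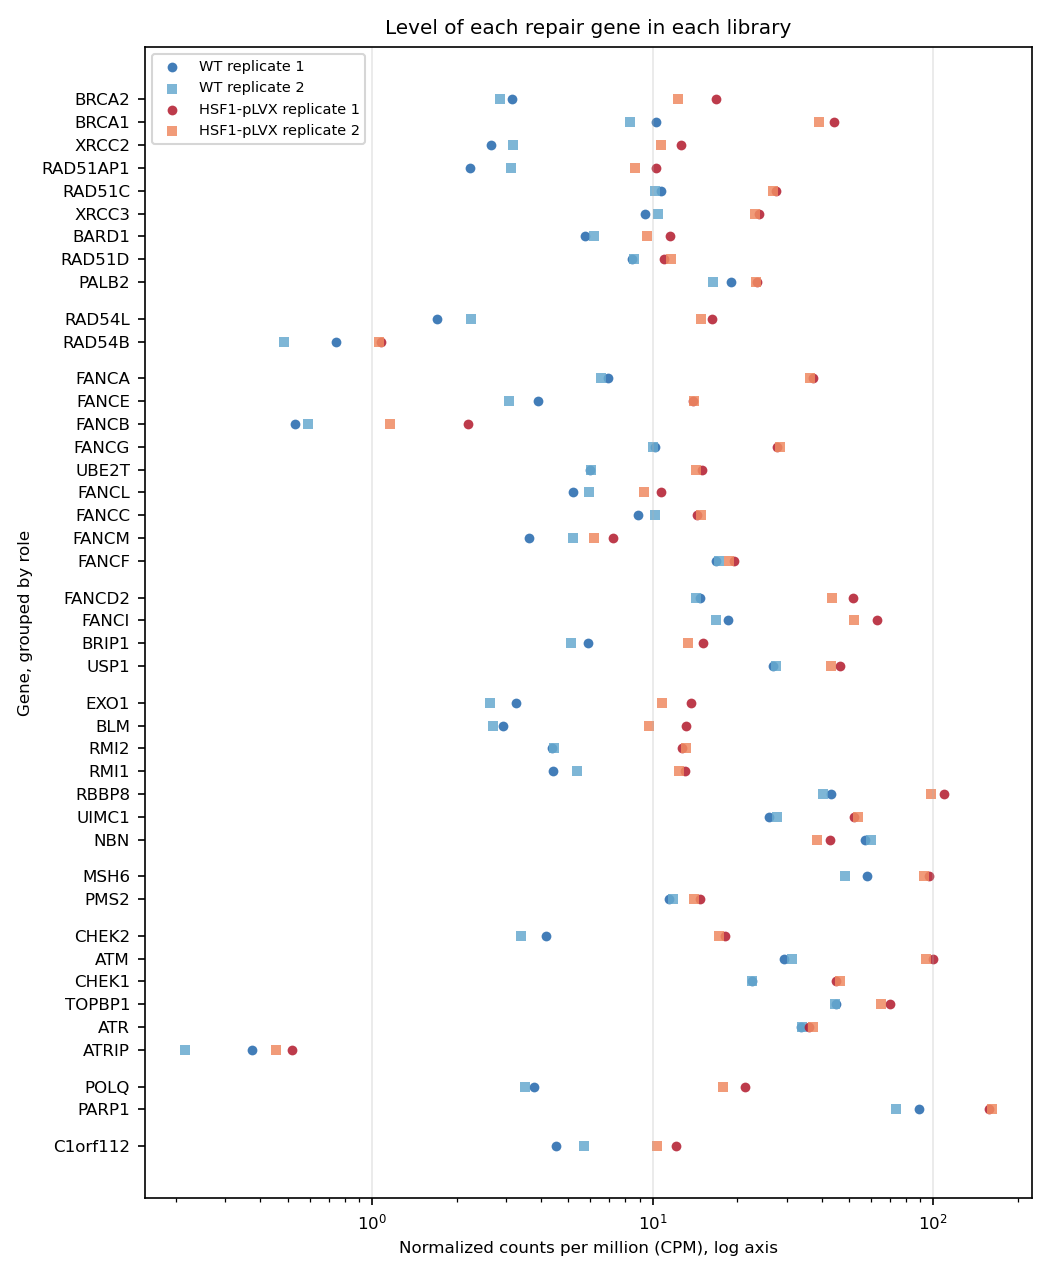
Normalized CPM (log axis) of the 42 repair genes in each of the 4 libraries, grouped by role and ordered by fold change within a role. Blue points are WT and red or orange points HSF1-pLVX libraries. The HSF1-pLVX points lie to the right of the WT points in 40 of the 41 tested genes, and NBN shows the opposite order.

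Among the mediators of recombination, 9 of 9 genes rose, 6 of them at least 2-fold, with a median log2 fold change of 1.38. BRCA2, the central mediator, was at 3.14 and 2.85 CPM in WT replicates 1 and 2 and at 16.8 and 12.3 CPM in HSF1-pLVX replicates 1 and 2. Its log2 fold change was 2.27 ± 0.19 (SE, edgeR adjusted p = 7.67e-33), the highest of the role. PALB2, the bridge between BRCA1 and BRCA2, went from 19.1 and 16.4 CPM to 23.5 and 23.3 CPM. Its libraries did not overlap either, but the log2 fold change was 0.40 ± 0.13 (edgeR adjusted p = 0.00278). BRCA1 rose by a log2 fold change of 2.17 and its ubiquitin ligase partner BARD1 by 0.81. The paralogs of the role spread as widely: XRCC2 was at 1.997, RAD51C at 1.38, XRCC3 at 1.25 and RAD51D at 0.40 on the log2 fold change scale. RAD51AP1, which stimulates strand invasion, was at 1.83. The calls of PALB2 and RAD51D were the weak ones: the adjusted p of PALB2 was 0.0643 without WT replicate 2 and 0.0799 without HSF1-pLVX replicate 2, and that of RAD51D was 0.0837 without HSF1-pLVX replicate 2. BRCA1 has a partial pseudogene copy with which it could share reads. XRCC3 shares 76.7% of its exon bases with KLC1 on the opposite strand, which fell by 0.55 on the log2 scale, and whether the counting used strand is not stated.

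RAD54L and RAD54B encode motor proteins that help open the DNA copied from. RAD54L was at 1.705 and 2.26 CPM in the WT libraries and at 16.3 and 14.9 CPM in the HSF1-pLVX libraries. This was the largest fold change of the 41 tested genes, at a log2 fold change of 2.98 ± 0.20 (SE, edgeR adjusted p = 4.22e-49). RAD54B, with 14 and 9 counts in WT and 27 and 21 counts in HSF1-pLVX libraries, was the least abundant of the tested genes per length. Its log2 fold change was 0.79 ± 0.43 and was not called (edgeR adjusted p = 0.098), and its 4 libraries nevertheless did not overlap between groups. RAD54L shares 25.1% of its exon bases with LRRC41 on the opposite strand, whose log2 fold change was -0.30. RAD54B shares 59.1% with FSBP on the same strand.

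In the Fanconi core complex and its ubiquitin-conjugating enzyme UBE2T, 8 of 9 genes rose, 5 of them at least 2-fold, with a median log2 fold change of 1.29. FANCA was at 6.93 and 6.57 CPM in WT and at 37.2 and 36.3 CPM in HSF1-pLVX libraries. Its log2 fold change of 2.44 ± 0.14 (SE, edgeR adjusted p = 1.67e-69) came second among all 41 genes. FANCF, which joins parts of the complex, was at 16.8 and 17.3 CPM in WT and at 19.6 and 18.7 CPM in HSF1-pLVX libraries. The groups did not overlap but lay close, at a log2 fold change of 0.17 ± 0.13 (edgeR adjusted p = 0.252, with a 95% interval from -0.09 to 0.42). FANCE, which binds FANCD2, was at a log2 fold change of 2.01, FANCB at 1.55, FANCG at 1.48, UBE2T at 1.29, the ubiquitin ligase subunit FANCL at 0.84, FANCC at 0.62 and the DNA translocase FANCM at 0.61. FANCB was counted only 10 and 11 times in WT and 55 and 23 times in HSF1-pLVX libraries. Its adjusted p was 0.0966 without HSF1-pLVX replicate 1. FANCM lost its call without WT replicate 1 (adjusted p = 0.13), without HSF1-pLVX replicate 1 (0.117) and without HSF1-pLVX replicate 2 (0.0899). FANCA shares 23.6% of its exon bases with ZNF276, whose log2 fold change was 0.55, and FANCL 19.7%, most of it with VRK2, both on opposite strands.

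The target of the core complex and its partners rose in 4 of 4 genes, 3 of them at least 2-fold. FANCD2, the subunit that receives ubiquitin, was at 14.7 and 14.3 CPM in WT and at 51.6 and 43.5 CPM in HSF1-pLVX libraries, a log2 fold change of 1.71 ± 0.12 (SE, edgeR adjusted p = 2.9e-45). FANCI, which clamps DNA together with FANCD2, had a log2 fold change of 1.71 as well. BRIP1, a helicase that binds BRCA1, was at 1.37. USP1, the protease that takes the ubiquitin off again, rose less: it was at 26.8 and 27.6 CPM in WT and at 46.6 and 43.04 CPM in HSF1-pLVX libraries, a log2 fold change of 0.72 ± 0.11 (edgeR adjusted p = 3.89e-10). FANCD2 has pseudogene copies, so that reads could be split among them.

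The genes of end resection and of the dissolution of joined molecules held the only gene that fell. Of 7, 6 rose, 5 of them at least 2-fold. EXO1, the nuclease of long-range resection, was at 3.25 and 2.64 CPM in WT and at 13.7 and 10.8 CPM in HSF1-pLVX libraries. Its log2 fold change was 2.05 ± 0.19 (SE, edgeR adjusted p = 2.14e-25). NBN, which ties the MRE11 nuclease and RAD50 to ATM, was at 57.3 and 59.9 CPM in WT and at 43.02 and 38.4 CPM in HSF1-pLVX libraries. Both HSF1-pLVX libraries lay below both WT libraries, and the gene fell by 0.53 ± 0.10 on the log2 scale (edgeR adjusted p = 1.36e-06). The other subunits of its complex, named after their values were seen, went the other way, MRE11 with a log2 fold change of 1.22 and RAD50 with 0.64. RBBP8, the cofactor that starts resection with this complex, was at 1.31. The helicase BLM was at 2.02 and its complex partners RMI2 and RMI1 at 1.55 and 1.38. UIMC1, which brings a BRCA1 complex to ubiquitin at breaks, was at 0.99.

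**Figure D2:**
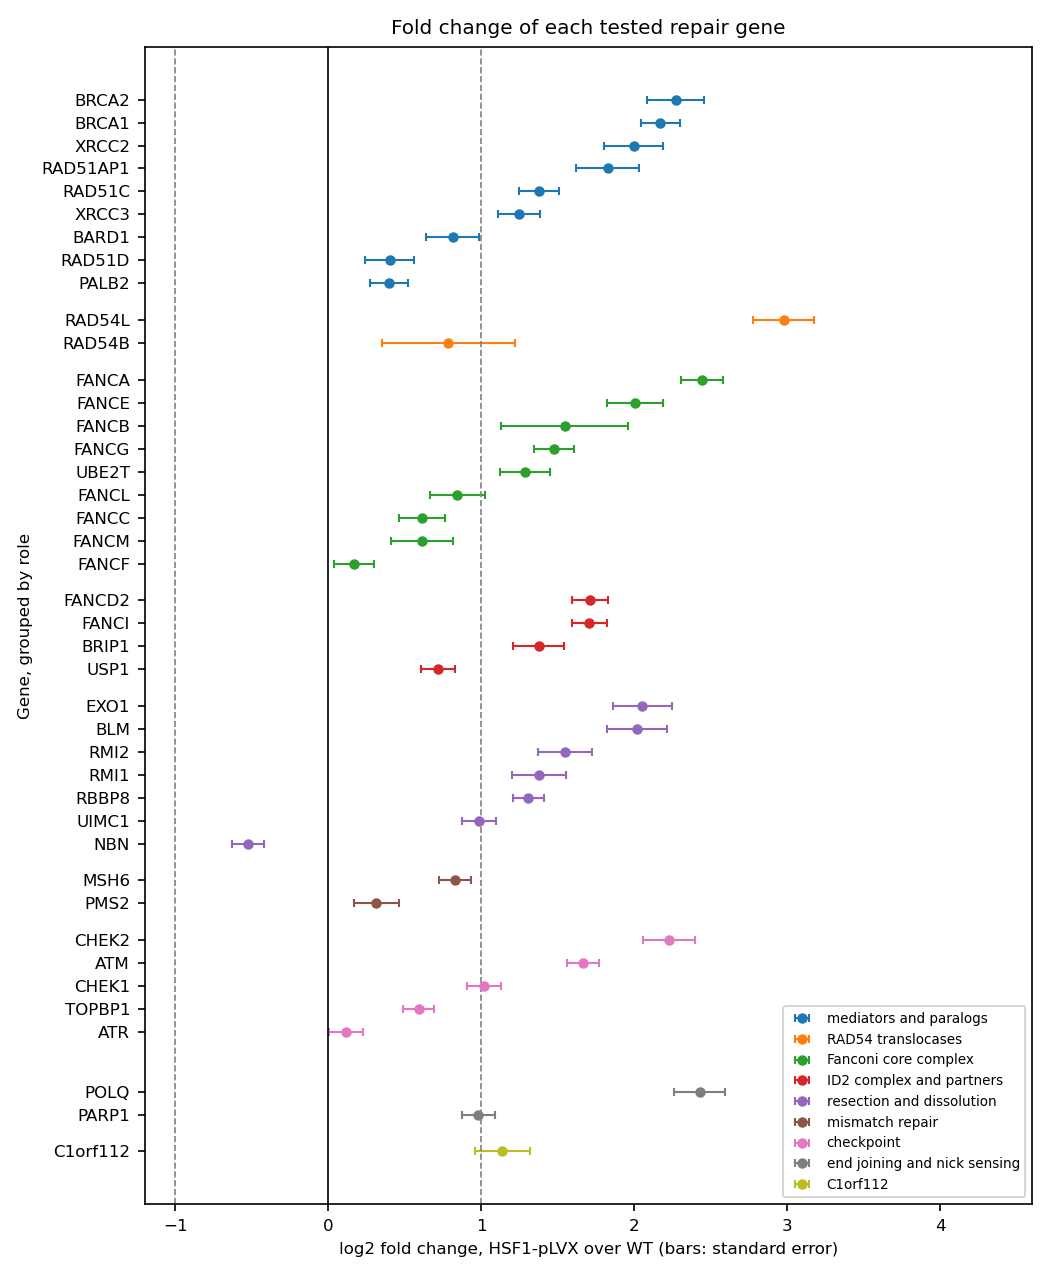
Log2 fold change of HSF1-pLVX over WT for the 41 tested repair genes, colored by role, with bars for the standard error of the edgeR fit. Dashed lines mark 2-fold changes. The genes run from NBN at -0.53 to RAD54L at 2.98, and every role with more than 2 genes spans both sides of the 2-fold line.

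Both listed mismatch repair genes were called higher, neither of them 2-fold. MSH6, a subunit of mismatch recognition, was at 58.2 and 48.5 CPM in WT and at 96.7 and 92.4 CPM in HSF1-pLVX libraries, a log2 fold change of 0.83 ± 0.10 (SE, edgeR adjusted p = 5.81e-15). PMS2, the endonuclease subunit that cuts the new strand, was at 11.4 and 11.8 CPM in WT and at 14.7 and 14.1 CPM in HSF1-pLVX libraries. The groups lay apart by little, and the log2 fold change of 0.32 ± 0.15 (edgeR adjusted p = 0.0464) was the weakest call of the 38. It was lost without any 1 of the 4 libraries, at an adjusted p of 0.0787 without WT replicate 1, 0.0628 without WT replicate 2, 0.133 without HSF1-pLVX replicate 1 and 0.0724 without HSF1-pLVX replicate 2. PMS2 also has several near-identical pseudogenes, and MSH6 shares 16.2% of its exon bases with FBXO11 on the opposite strand.

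Of the checkpoint genes, 4 of the 5 tested rose, 3 of them at least 2-fold. CHEK2, the kinase that ATM activates, was at 4.16 and 3.39 CPM in WT and at 18.1 and 17.2 CPM in HSF1-pLVX libraries, a log2 fold change of 2.23 ± 0.17 (SE, edgeR adjusted p = 3.83e-37). ATM, which answers double-strand breaks, had a log2 fold change of 1.67. ATR, which answers stalled forks, was at 33.7 and 34.1 CPM in WT and at 36.05 and 37.4 CPM in HSF1-pLVX libraries. Its groups did not overlap, and its log2 fold change of 0.12 ± 0.11 was not called (edgeR adjusted p = 0.36, with a 95% interval from -0.10 to 0.33). CHEK1, the kinase that ATR activates, was at a log2 fold change of 1.02 and TOPBP1, the activator of ATR, at 0.59. ATRIP, the partner that carries ATR to DNA, was too scarce to test, with 7 and 4 counts in WT and 13 and 9 counts in HSF1-pLVX libraries. It shares 74.3% of its exon bases with a read-through gene on the same strand. CHEK2 has pseudogene copies, and ATR shares 16.4% of its exon bases with a pseudogene that has 0 counts.

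The last 3 genes rose as well. POLQ, the polymerase of end joining guided by short repeats, was at 3.78 and 3.50 CPM in WT and at 21.4 and 17.9 CPM in HSF1-pLVX libraries. Its log2 fold change of 2.43 ± 0.17 (SE, edgeR adjusted p = 2.89e-45) was the third of the 41. PARP1, the sensor of nicks and breaks, was at 89.2 and 73.4 CPM in WT and at 158.0 and 161.5 CPM in HSF1-pLVX libraries, a log2 fold change of 0.98 ± 0.11 (edgeR adjusted p = 9.38e-19). C1orf112, whose protein works with FIGNL1 in recombination, was at 4.53 and 5.71 CPM in WT and at 12.1 and 10.4 CPM in HSF1-pLVX libraries. Its log2 fold change was 1.14 ± 0.18 (edgeR adjusted p = 5.36e-10), and 23.3% of its exon bases are shared, most of them with SCYL3 on the opposite strand.

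The counts were also made without genes that share many exon bases with others. Of 33 tested genes with at most 10% of their exon bases shared, 31 were called higher and 21 at least 2-fold, with a median log2 fold change of 1.38. By the rule that the study used, a ratio above 2 in both replicates of the deposited normalized values, 22 of the 42 genes passed upwards and 0 passed downwards. The shares of the 22321 genes of that table were 5.00% upwards and 6.42% downwards. That table holds more genes than the 15830 tested here, of which 14.9% were called at least 2-fold higher and 14.0% lower by the edgeR test. The contrast with all genes thus depends on the rule and on the genes included. The ratio was larger in replicate 1 than in replicate 2 in 26 of the 41 tested genes.

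Levels were compared between genes as CPM divided by the kilobases of exon (RPKM), the mean of 2 libraries. In WT cells they ran from 0.116 RPKM for RAD54B to 11.3 RPKM for PARP1, with a median of 1.36. In HSF1-pLVX cells they ran from 0.201 RPKM for RAD54B to 22.3 RPKM for PARP1, with a median of 4.14. The number of genes under 1 RPKM went from 15 to 4. The order of the genes was largely kept, with a Spearman rho of 0.845 between the groups over 41 genes. Genes that were scarce in WT tended to have larger ratios. With the RPKM of 1 WT library and the ratio from the libraries of the other replicate number, the rho over these 41 genes was -0.413 and -0.585. Over all tested genes it was -0.206 and -0.283. These values are across genes, which share libraries, and are given as a description.

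**Figure D3:**
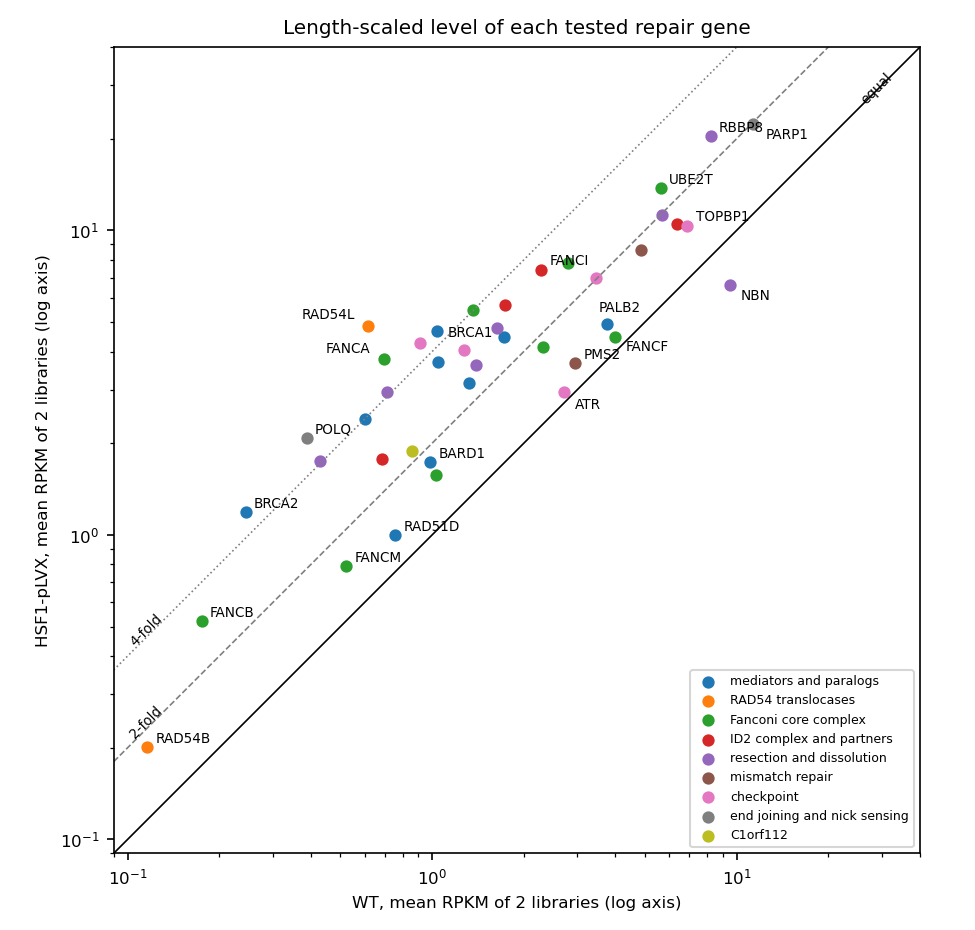
Mean RPKM of 2 libraries in WT (horizontal) and HSF1-pLVX cells (vertical) for the 41 tested repair genes, both on log axes, colored by role. Lines mark equal, 2-fold higher and 4-fold higher levels. BRCA2 and POLQ, toward the lower left, lie above the 4-fold line, PARP1 at the upper right lies close to the 2-fold line, and NBN lies under the line of equal levels.

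Because partners did not rise alike, the ratio of RPKM between genes whose products work together was set out by library, for pairs picked with their values known and thus without a test. FANCD2 and FANCI kept their ratio: it was 0.737 and 0.788 in WT and 0.758 and 0.771 in HSF1-pLVX libraries, and the groups overlapped. The ratio of BRCA1 to BARD1 went from 1.22 and 0.911 in WT to 2.61 and 2.80 in HSF1-pLVX libraries. That of BRCA2 to PALB2 went from 0.0637 and 0.0672 to 0.277 and 0.205, so that PALB2 stayed the more abundant of the pair per length. ATM was below ATR in WT, at ratios of 0.456 and 0.481, and above it in HSF1-pLVX libraries, at 1.44 and 1.31. RBBP8 and NBN also changed order, from ratios of 0.913 and 0.815 to 3.08 and 3.08. In the other direction, RAD51D went from above XRCC2, at 1.37 and 1.16, to below it, at 0.371 and 0.468. The ratio of CHEK2 to CHEK1 went from 0.291 and 0.237 to 0.637 and 0.585.

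**Figure D4:**
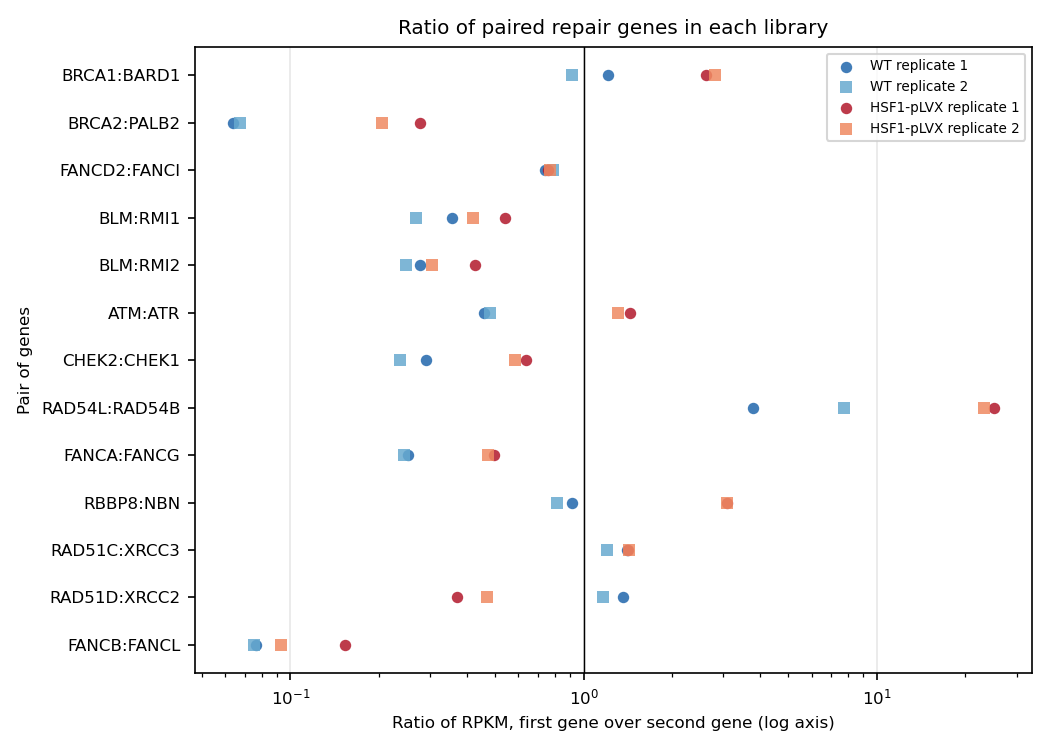
Ratio of RPKM between the genes of a pair (log axis) in each library, with WT in blue and HSF1-pLVX in red or orange. FANCD2 over FANCI is alike in the 4 libraries, while ATM over ATR and RBBP8 over NBN cross from under 1 in WT to over 1 in HSF1-pLVX libraries.

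The rest of the pathway, a list of 58 partners such as nuclease subunits, RPA and the clamp of the checkpoint, was tested in the same fit. Of 54 tested, 32 were called higher, 18 of them at least 2-fold, and 5 lower, with a median log2 fold change of 0.64. Its extremes were the alternative partners of 1 nuclease: EME1, which pairs with MUS81, was at 1.01 and 0.592 CPM in WT and at 9.08 and 9.51 CPM in HSF1-pLVX libraries, a log2 fold change of 3.52. EME2, the alternative subunit, was at 50.8 and 62.5 CPM in WT and at 32.3 and 31.9 CPM in HSF1-pLVX libraries and fell by 0.81 on the log2 scale. Exon bases shared with other genes were not computed for the partners or for the lists that follow. The number called lower depended on the fit, with 1 under the DESeq2 Wald test and 3 without HSF1-pLVX replicate 1.

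Other repair routes were set beside these genes. Of 14 genes of end joining without a template, 6 were called higher and 1 lower, with a median log2 fold change of 0.31. The kinase PRKDC was the highest at 1.15, and the ligase LIG4, which seals the joint, was the lowest, at 28.5 and 31.4 CPM in WT and 9.60 and 9.26 CPM in HSF1-pLVX libraries, a log2 fold change of -1.66. Of 18 tested genes of nucleotide excision repair, 7 were higher and 6 lower, with a median of 0.14, from ERCC6 at -1.41 to GTF2H3 at 1.23. Of 19 genes of base excision repair, 10 were higher and 3 lower, with a median of 0.25, from the gap-filling polymerase POLB at -2.35 to the glycosylase MUTYH at 2.32. The shares called higher were 42.9%, 38.9% and 52.6%. Beside them stood 90.2% of the 41 tested genes described here, 59.3% of the tested pathway partners and 32.5% of all tested genes. No test was made between the lists, which were chosen with earlier results of these data known. The number of end joining genes called lower was 2 without WT replicate 2, and that of nucleotide excision repair was 3 without HSF1-pLVX replicate 1. The median of nucleotide excision repair was 0.21 without WT replicate 1 and 0.07 without WT replicate 2.

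**Figure D5:**
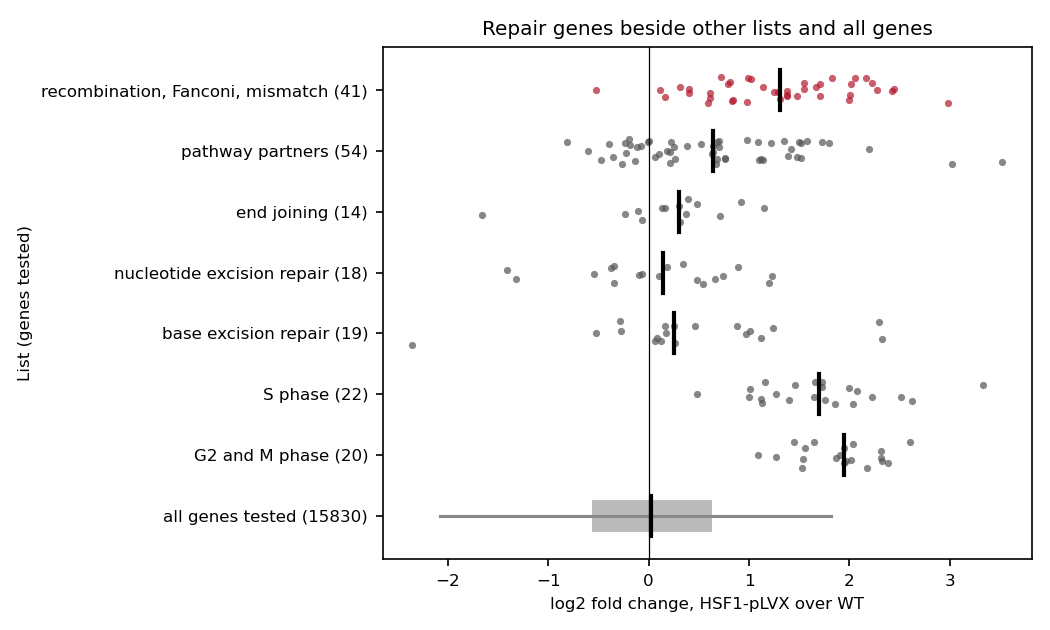
Log2 fold change of HSF1-pLVX over WT for each tested gene of the recombination, Fanconi and mismatch repair list (red) and of 6 other lists (grey), with black bars for medians. The lowest line gives the middle 50% (box) and middle 90% (line) of all 15830 tested genes. The red points center on 1.31, between the partner list at 0.64 and the cell cycle lists at 1.69 and 1.94.

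Genes of the cell cycle rose together with the repair genes. On a list of S phase genes (replication licensing and nucleotide supply), 22 of 22 were called higher, 21 of them at least 2-fold, with a median log2 fold change of 1.69. Their summed level was 599.7 and 527.4 CPM in WT and 1727 and 1720 CPM in HSF1-pLVX libraries. On a list of G2 and M phase genes, 20 of 20 were called at least 2-fold higher, with a median of 1.94. Their summed level was 355.2 and 281.9 CPM in WT and 1311 and 1068 CPM in HSF1-pLVX libraries. The 42 repair genes summed to 645.8 and 623.6 CPM in WT and to 1353 and 1270 CPM in HSF1-pLVX libraries. Of the 41 tested repair genes, 13 had a fold change above the S phase median and 10 above the G2 and M phase median. The study found no effect of stable overexpression on proliferation of MCF10A cells, measured by crystal violet staining. It also lists DNA replication among the pathways enriched in its up-regulated genes. The part of the cell cycle in the result was not tested. In bulk RNA, a larger share of cells in a phase and more RNA per cell cannot be told apart. UNG stands on both the S phase and the base excision list.

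Markers of the labelled cell type were present in every library. The 11 mammary epithelial markers summed to between 18443 and 18751 CPM in WT and between 10195 and 10768 CPM in HSF1-pLVX libraries, with 4 higher and 6 lower. The 4 higher were TP63, KRT5, EGFR and ITGA6, with log2 fold changes from 0.44 (ITGA6) to 3.48 (TP63). The 6 lower were KRT14, KRT8, KRT17, KRT18, CDH1 and EPCAM, from -3.55 (KRT14) to -1.37 (EPCAM). ITGB4 was not called. Of 9 fibroblast markers, 3 were tested. DCN was called higher, with 1 and 3 counts in WT and 94 and 87 counts in HSF1-pLVX libraries. FAP was called lower, from a mean of 203.9 CPM in WT to 39.9 CPM in HSF1-pLVX libraries. COL1A1, with 135 and 193 counts in WT and 269 and 183 counts in HSF1-pLVX libraries, was not called. COL1A2, COL3A1 and LUM had 0 or 1 count in each library, and PDGFRA, PDGFRB and THY1 had between 0 and 10. The summed fibroblast markers ran from 199.3 to 227.2 CPM in WT and from 48.9 to 59.9 CPM in HSF1-pLVX libraries, and most of that sum was FAP. The part of these markers in the result was not tested. None of the 4 leukocyte and 3 endothelial markers had enough counts to test, and PTPRC had 0 counts in every library. The largest count among them was that of PECAM1, 23 in HSF1-pLVX replicate 2.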

How the data were processed

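Total RNA was depleted of ribosomal RNA and sequenced in 2 WT and 2 HSF1-pLVX libraries of MCF10A cells, which the labels group by genotype and number by replicate. The authors deposited raw counts per gene for 63856 genes, made with HISAT2 2.0.5 (hg38), SAMtools 1.13 and featureCounts 1.6.5. Strand, overlap and multi-mapping settings are not given in the sources used here. The authors also deposited log2 values normalized with DESeq2 1.32.0, used here for the ratio rule and as an alternative.

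The test was edgeR's quasi-likelihood test (edgeR 4.0.16, R 4.3.3) after filterByExpr and TMM scaling, with a block for the replicate number, since the study formed its ratios within a number. Genes were called at an adjusted p of 0.05 over 15830 genes, and as 2-fold with a log2 fold change beyond 1. CPM are TMM-normalized, and RPKM divide them by counted exon length. With the block the prior degrees of freedom were infinite, so very small p-values rest on a spread shared between genes. Without the block they were 11.94. Replicates differed by more than sampling noise (chi-square per degree of freedom of 6.62 and 8.04). On simulated data with a spread common to all genes, the script recovered known changes. Those data do not check the p-values where the spread differs between genes. Alternatives were other scalings, filters and tests, no block, and leaving out each library.

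The genes, roles and lists were chosen with earlier results of these data known. Values per library are given for the genes with the highest and lowest fold change of each role, those called lower and those not called, and for others only where said. Coordinates are those of hg38, and promoters those of RefSeq. Some genes are not reported here.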

Additional observations from a re-analysis of the deposited data

How the results depend on the processing

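NBN stayed lower and the direction of each of the 41 tested repair genes was kept under all alternatives run. The number called higher, 37, was 32 with DESeq2 and between 36 and 37 with other scalings, filters, limma voom (limma 3.58.1) or only the main chromosomes, 35 at an adjusted p of 0.01, and between 33 and 35 without any 1 library. The median log2 fold change stayed between 1.16 and 1.37. The calls of PALB2, RAD51D, FANCB, FANCM and PMS2 were lost with DESeq2, at adjusted p values of 0.128, 0.257, 0.109, 0.178 and 0.338, and that of PMS2 also with DESeq2's size factors in edgeR (0.0533), without a filter (0.0828) and with limma voom (0.0627). The number called at least 2-fold higher, 25, ran from 24 (DESeq2) to 28 (glmTreat against 1.5-fold).

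The replicate numbers did not pair the samples: deviations of same-numbered libraries from their group means correlated at 0.000143 over all genes and at -0.113 over the 9672 genes above 8 CPM. Without the replicate block 37 genes were called higher and 1 lower, each with the call it had with the block, and the median log2 fold change was 1.31. The crossed pairing, chosen after seeing the data, also gave 37 and 1. Very small adjusted p-values depended strongly on the block. In edgeR that of FANCA was 1.67e-69 with the block and 2.29e-10 without it, and that of RAD54L was 4.22e-49 and 2.85e-09. With the deposited normalized values 11 fold changes moved beyond the replicate spread, all to smaller values, as RAD54L to 2.55 and FANCB to 0.89. Low counts limit RAD54B, FANCB and ATRIP.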
